A study of Mus musculus with 12 samples.

Results

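The 3 little-studied genes, U90926, Shisa3 and Rasgrp1, are described here in mouse bone marrow macrophages given lipopolysaccharide (LPS). They had been picked from earlier results of the same arrays, for a large induction in wild-type cells or a smaller response in kinase-dead cells at 4 h. All probe sets annotated with only 1 of these symbols were taken, which gave 7 of the 45101 probe sets on the array: 1 for U90926, 2 for Shisa3 and 4 for Rasgrp1. The values at 4 h chose the genes and are therefore given as a description without a test, and tests are given only for the 1 h and unstimulated comparisons. The rule names genes and has no numeric threshold, so there are no members just inside or outside one.

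LPS, a glycolipid of Gram-negative bacteria, activates Toll-like receptor 4, which signals through the adaptor MyD88 and also through the adaptor TRIF. IRAK4 is a serine/threonine kinase that is recruited to MyD88, and a kinase-dead form keeps the protein but not its enzymatic activity. U90926 is annotated by RefSeq as a long non-coding RNA gene on chromosome 5. Shisa3, on the same chromosome, encodes a transmembrane protein of the Shisa family, whose founding member holds back the maturation of Frizzled and fibroblast growth factor receptors in the endoplasmic reticulum. Rasgrp1, on chromosome 2, encodes an exchange factor that binds diacylglycerol and calcium and loads Ras with GTP, and it is best known from T cells.

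Expression was measured on 12 one-colour arrays, 2 for each of 6 groups, and values are linear signals per probe set. The groups were wild-type (WT) macrophages without LPS for 4 h, WT macrophages with LPS at 1 µg/ml for 1 h, WT macrophages with LPS at 1 µg/ml for 4 h, and the same conditions in macrophages of IRAK4 kinase-dead (KD) mice. All cultures were grown in serum-containing medium with L-929 conditioned medium, and the age and sex of the mice were not given in the sources used here. The KD allele was carried by the animals, so the kinase was inactive throughout the life of the cells and not only during LPS treatment. Cultures without LPS were kept for 4 h, and LPS and time in culture differ together in the comparisons at 1 h. The labels call the replicates biological without naming animals or cultures. The p-values set differences between group means against the spread between arrays of a group, taken over all 12 arrays. That spread may be technical.

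All arrays had a trimmed mean signal of 150, with medians of 18.9 to 22 on WT arrays and 24.2 to 26.9 on KD arrays. Macrophage markers were high on every array, with 9 of 10 listed genes measured, none of them below the array median, and a summed signal of 18205 to 26216. The strains were not alike: without LPS the sums were 18205 to 18668 on the WT arrays and 21979 to 26216 on the KD arrays. No probe set stood for Irak4 (0 of 45101), so the targeted gene gave no check of the strain labels. By the 3' against 5' control probes, KD unstimulated replicate 1 stood apart, with log2 ratios of 1.35 (Gapdh) and 3.04 (Actb) against at most 1.17 and 2.85 elsewhere. In material from whole cultures, fewer cells of a type and less RNA per cell cannot be told apart.

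The windows of 250 bases before the start of each gene are shown because the time courses of the 3 genes, given next, differed. They are RefSeq sequences of build GRCm38.p6, printed 5' to 3' on the gene's strand, with bases that match a searched motif in capitals. U90926 lies on the minus strand (chr5:92215409-92215658), Shisa3 on the plus strand (chr5:67607633-67607882) and Rasgrp1 on the minus strand (chr2:117342878-117343127).
U90926: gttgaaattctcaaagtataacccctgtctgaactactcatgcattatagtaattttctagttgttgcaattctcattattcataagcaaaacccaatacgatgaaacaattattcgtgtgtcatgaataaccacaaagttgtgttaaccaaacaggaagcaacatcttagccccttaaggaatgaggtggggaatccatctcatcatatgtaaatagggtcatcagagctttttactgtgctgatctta
Shisa3: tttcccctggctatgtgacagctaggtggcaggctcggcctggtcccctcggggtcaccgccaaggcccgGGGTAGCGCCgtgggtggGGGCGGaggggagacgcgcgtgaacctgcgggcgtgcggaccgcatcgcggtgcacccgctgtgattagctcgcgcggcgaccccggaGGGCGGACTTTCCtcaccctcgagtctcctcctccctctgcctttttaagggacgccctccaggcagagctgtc
Rasgrp1: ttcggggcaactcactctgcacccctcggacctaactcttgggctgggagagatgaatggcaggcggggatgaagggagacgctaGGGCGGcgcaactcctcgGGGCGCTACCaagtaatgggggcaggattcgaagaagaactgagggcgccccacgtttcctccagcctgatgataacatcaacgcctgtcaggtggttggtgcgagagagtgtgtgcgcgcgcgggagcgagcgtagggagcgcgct
The U90926 window had a GC content of 36%, near the 5th percentile (34.8%) of the 32851 windows in the table. The windows of Shisa3 (69.6%) and Rasgrp1 (62.4%) lay above the median of 52.4% and below the 95th percentile of 73.6%.

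Motifs were searched on both strands, with the sequences in view when they were chosen. The looser NF-κB pattern, GGG and CC with any 5 bases between them, which 45.8% of all windows hold, began at position -180 from the gene start of Shisa3 and at -147 of Rasgrp1. The narrower NF-κB pattern GGANNTTCC, held by 3.59% of windows, matched only Shisa3, at -70, where it overlaps a GC box. The GC box GGGCGG, held by 32.7% of windows, was found at -162 and -74 of Shisa3 and at -165 of Rasgrp1. No window of the 3 held the AP-1 site TGANTCA (6.75% of all windows), the cAMP response element TGACGTCA (1.55%), the interferon-stimulated element, GAAA repeated after any 2 bases (2.98%), the C/EBP pattern TTGCNNAA (9.56%) or the TATA box TATAAA (12.4%), and that of U90926 held no searched motif. A match is a run of letters and not a measured binding site.

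U90926 was raised in WT cells at both times and stayed low in KD cells. Its signal was 18.8 and 40.1 on the WT unstimulated arrays, 76.6 and 87.6 after 1 h of LPS, and 335.1 and 300.3 after 4 h. On the KD arrays it was 15.3 and 13.8 without LPS, 15.4 and 21.6 at 1 h, and 10.4 and 19.8 at 4 h. Every WT array with LPS thus lay above every KD array, and the 3 WT groups did not overlap one another. All 6 KD values and that of WT unstimulated replicate 1 were below the median of their array. The order of the means was WT at 4 h (318 ± 24.6, SD, n = 2), WT at 1 h (82.1 ± 7.78), WT unstimulated (29.4 ± 15.1), KD at 1 h (18.5 ± 4.38), KD at 4 h (15.1 ± 6.65) and KD unstimulated (14.6 ± 1.06). Among the lower groups, WT unstimulated overlapped KD at 1 h and at 4 h, and KD at 4 h overlapped both other KD groups.

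**Figure D1:**
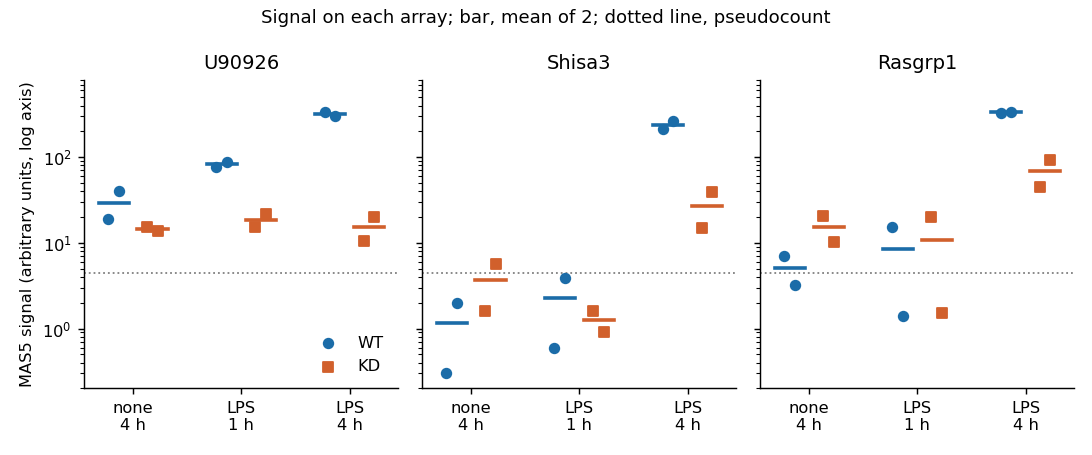
Signal of the representative probe set of U90926, Shisa3 and Rasgrp1 on each of the 12 arrays, by strain and condition; points are arrays and bars are the means of 2. All 3 genes had their highest signals on the 2 WT arrays at 4 h, and only U90926 was already raised in WT at 1 h (76.6 and 87.6).

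The group means of KD and WT at 1 h came from arrays that did not choose the genes. The SE and p-value of their comparison, however, draw on the spread of all 12 arrays, among them those that chose the genes. U90926 was lower in KD, with a ratio of mean signals, WT over KD, of 4.44 and a log2 difference of -1.93 ± 0.37 (SE; 95% interval -2.71 to -1.14; limma adjusted p = 0.0129, n = 2 arrays per group). Log2 values here and below are of the signal plus 4.4, which understates changes of low signals, and the interval counts the 12 arrays as replicates. U90926 was 1 of the 3 genes called at an adjusted p under 0.05, beside 1.11% of all tested probe sets, and it ranked 14 from the lowest among 12914 genes. It passed the filter on low signals through WT arrays only, where it is high, so nothing is read from its count beside that share. The call was lost without WT 1 h replicate 1 (adjusted p = 0.058), WT 1 h replicate 2 (0.14) or KD 1 h replicate 1 (0.116), and with a variance prior that has no trend with signal (0.106), while the difference stayed between -2.12 and -1.73 with any 1 array left out.

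Against the unstimulated WT arrays, which the rule also used, U90926 rose after 1 h of LPS by 1.43 ± 0.37 (95% interval 0.64 to 2.21; limma adjusted p = 0.0272), or 2.79 times on the mean signal. It was 1 of 3 genes called, beside 6.12% of all probe sets. The call depended on single arrays: it was lost without WT unstimulated replicate 1 (0.96, adjusted p = 0.334), WT 1 h replicate 1 (0.0774), WT 1 h replicate 2 (0.191), WT 4 h replicate 1 (0.0569) or WT 4 h replicate 2 (0.0553). It was also lost without the filter on low signals (0.0642) and without the trend in the prior (0.0939). In KD the difference at 1 h was 0.26 ± 0.37 (95% interval -0.52 to 1.04; adjusted p = 0.793). The strain difference in the 1 h response itself was -1.16 ± 0.53 (95% interval -2.27 to -0.06; adjusted p = 0.424), so the larger response in WT did not pass the test across all probe sets. Without LPS, the KD arrays were lower than both WT arrays and the log2 difference was -0.76 ± 0.37 (adjusted p = 0.301).

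As a description of the values that chose it, U90926 at 4 h was 3.32 ± 0.37 above the unstimulated level in WT (10.8 times the mean signal) and -0.00 ± 0.37 from it in KD (1.04 times). Between the strains at 4 h the log2 difference was -4.09 ± 0.37, with a WT mean 21 times that of KD. Of the 53 genes whose WT change at 4 h was at least as high as that of U90926, it had the lowest change in KD, where the median of the 53 was 3.13. By the same measure Shisa3 was the lowest of 7 genes and Rasgrp1 the lowest of 11. Since the genes were chosen from these values, nothing is read from their position. From 1 h to 4 h the log2 signal changed by 1.90 in WT and by -0.26 in KD.

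Shisa3 was near the bottom of the signal range on every array without LPS or with 1 h of it, and high only at 4 h. The probe set 1460000_at gave 0.3 and 2.0 in WT without LPS, 0.6 and 3.9 at 1 h, and 210.9 and 262.6 at 4 h. In KD the signals were 1.6 and 5.7, then 1.6 and 0.9, then 14.9 and 39.1. All 8 arrays without LPS or at 1 h were below their array's median, and the values of those 4 groups overlapped. At 4 h the KD arrays lay above all of these and below both WT arrays, with means of 27 ± 17.1 (SD, n = 2) in KD and 237 ± 36.6 in WT, a ratio of 8.77. On the array's own scale, the WT values were at percentiles 82.5 and 84.3 and the KD values at 36.6 and 60.2.

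At 1 h Shisa3 was not called in any comparison. The log2 difference from the unstimulated arrays was 0.23 ± 0.71 in WT (95% interval -1.26 to 1.73; limma adjusted p = 0.918) and -0.47 ± 0.71 in KD (-1.96 to 1.03; adjusted p = 0.809). KD and WT differed by -0.19 ± 0.71 at 1 h (-1.69 to 1.30; adjusted p = 0.951) and by 0.51 ± 0.71 without LPS (adjusted p = 0.788). Each of the intervals at 1 h includes changes of over 2 times in either direction. All 4 signals at 1 h were below the added 4.4, so these comparisons could hardly show a difference. Described without a test, the change at 4 h was 5.45 ± 0.71 in WT and 1.90 ± 0.71 in KD, sizes that depend on the added 4.4 because the unstimulated signals were near or below it.

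The second probe set of Shisa3, 1438884_at, was above the array median on too few arrays to be tested. It read 8.6 and 2.4 in WT without LPS, 10.8 and 9.1 at 1 h, and 32.4 and 17.9 at 4 h, against 4.2 and 1.7, 13.4 and 0.8, and 5.5 and 3.5 in KD. The 2 highest values were again the WT arrays at 4 h, with a change of 1.61 ± 0.64 in WT and 0.29 in KD in the fit without a filter.

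**Figure D2:**
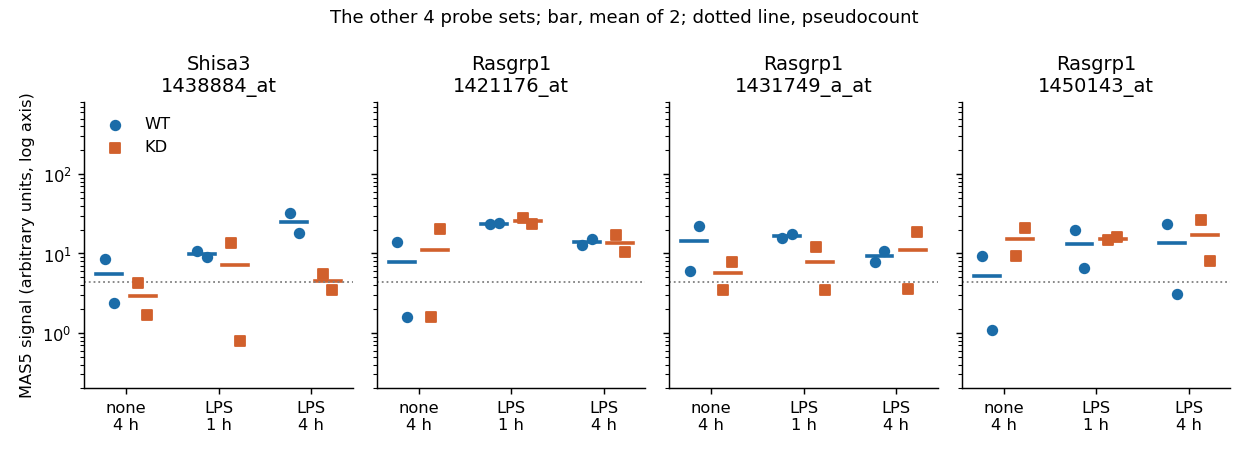
Signal on each of the 12 arrays of the probe sets of Shisa3 and Rasgrp1 other than their representatives, by strain and condition; points are arrays. Shisa3 1438884_at reached 32.4 and 17.9 on the WT arrays at 4 h, while no Rasgrp1 probe set shown exceeded 28.3.

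Rasgrp1 followed the late course of Shisa3 on 1 of its 4 probe sets. The probe set 1434295_at gave 7.1 and 3.2 in WT without LPS, 15.5 and 1.4 at 1 h, and 326.2 and 337.6 at 4 h. In KD it gave 20.6 and 10.2 without LPS, 20 and 1.5 at 1 h, and 44.8 and 93.6 at 4 h. As with Shisa3, the 8 arrays without LPS or at 1 h were below their array's median, and at 4 h the KD arrays lay between those and the WT arrays. The means at 4 h were 332 ± 8.06 (SD, n = 2) in WT and 69.2 ± 34.5 in KD, a ratio of 4.80. Without LPS both KD arrays were above both WT arrays (15.4 ± 7.35 against 5.15 ± 2.76), whereas the WT arrays at 1 h overlapped every group but those at 4 h.

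No 1 h or unstimulated comparison called Rasgrp1. By 1434295_at, its log2 difference from the unstimulated arrays at 1 h was 0.20 ± 0.65 in WT (95% interval -1.16 to 1.56; limma adjusted p = 0.922) and -0.67 ± 0.65 in KD (-2.03 to 0.69; adjusted p = 0.664). KD against WT gave 0.16 ± 0.65 at 1 h (-1.20 to 1.52; adjusted p = 0.956) and 1.03 ± 0.65 without LPS (-0.33 to 2.39; adjusted p = 0.458). The sign of the 1 h differences rested on 1 array: KD against WT ranged from -0.86, without KD 1 h replicate 1, to 1.18, and was -0.73 without WT 1 h replicate 2. Described without a test, the change at 4 h was 5.17 ± 0.65 in WT and 1.86 ± 0.65 in KD. Its size depends on the added 4.4, since the unstimulated signals were below the median of their arrays, and no fold of the signals is given.

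The other Rasgrp1 probe sets showed no such rise at 4 h. Probe set 1421176_at lay between 1.6 and 28.3, 1431749_a_at between 3.5 and 22.3, and 1450143_at between 1.1 and 26.4. Their WT changes at 4 h were 0.81, -0.31 and 0.74, and 1431749_a_at was not tested because of its low signal. At 1 h, however, 1421176_at read 23.3 and 24.1 in WT, against 13.9 and 1.6 without LPS, and 28.3 and 23.4 in KD, against 1.6 and 20.5. These ranges did not overlap, but the share of all probe sets without such overlap was not computed. The probe set was above the median only on 3 of the 4 arrays at 1 h and passed the filter through them. No rise of Rasgrp1 at 1 h is therefore read from it. The log2 differences were 1.42 ± 0.72 in WT (limma adjusted p = 0.304) and 1.30 ± 0.72 in KD (adjusted p = 0.374), neither of them called, where 1434295_at had 0.20 and -0.67. The files do not say where in the transcript each probe set lies, so the high signal of Rasgrp1 at 4 h rests on 1434295_at alone. Of the 5 tested probe sets of the 3 genes, those representing Shisa3 and Rasgrp1 passed the filter through their 4 h arrays only. That of U90926 passed through WT arrays only, and the passing of these probe sets is no sign of a change.

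Across the 3 genes, none was called at 1 h in KD (0 of 3 by limma, 0 of 3 at an unadjusted p under 0.05, beside 5.47% of probe sets called), and none was called between strains without LPS (0 of 3 and 0 of 3, beside 5.25%). The strain difference in the 1 h response called 0 of 3, with U90926 alone at an unadjusted p under 0.05, beside 0.326% of probe sets. Shisa3 and Rasgrp1 were below the array median on every array of these comparisons, and nothing is read from the counts for them. U90926 was below it on every KD array, so the count at 1 h in KD rests on low signals for all 3 genes. At 4 h the WT arrays of all 3 genes lay above their unstimulated arrays and above the KD arrays. Since the genes were chosen for this, nothing is read from it beside the 17.1% of probe sets called in WT and the 5.37% called between strains. In KD, the 4 h arrays of Shisa3 and Rasgrp1 did not overlap their unstimulated values and those of U90926 did. The rule used these arrays too, and the share of all probe sets without such overlap was not computed. No difference between the genes is therefore read from it. The strain difference in the 4 h response was -3.32 ± 0.53 for U90926, -3.55 ± 1.01 for Shisa3 and -3.31 ± 0.92 for Rasgrp1. These sizes are not compared between genes, since those of Shisa3 and Rasgrp1 depend on the added 4.4. The WT and KD responses at 1 h and at 4 h share their unstimulated arrays, so these values are not independent of one another. Without KD unstimulated replicate 1, the array with the highest 3' to 5' ratios, the strain difference at 4 h was -3.27 for U90926, -3.93 for Shisa3 and -2.92 for Rasgrp1.

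**Figure D3:**
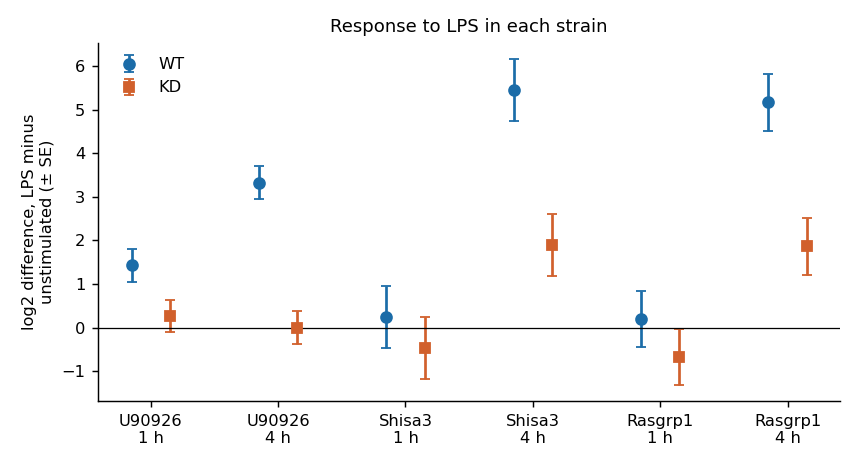
Log2 difference from the unstimulated arrays of the same strain at 1 h and 4 h for each gene's representative probe set, with bars of 1 SE. U90926 was at 1.43 in WT at 1 h and at -0.00 in KD at 4 h, while Shisa3 and Rasgrp1 were at 0.23 and 0.20 in WT at 1 h, at -0.47 and -0.67 in KD at 1 h, and at 1.90 and 1.86 in KD at 4 h.

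**Figure D4:**
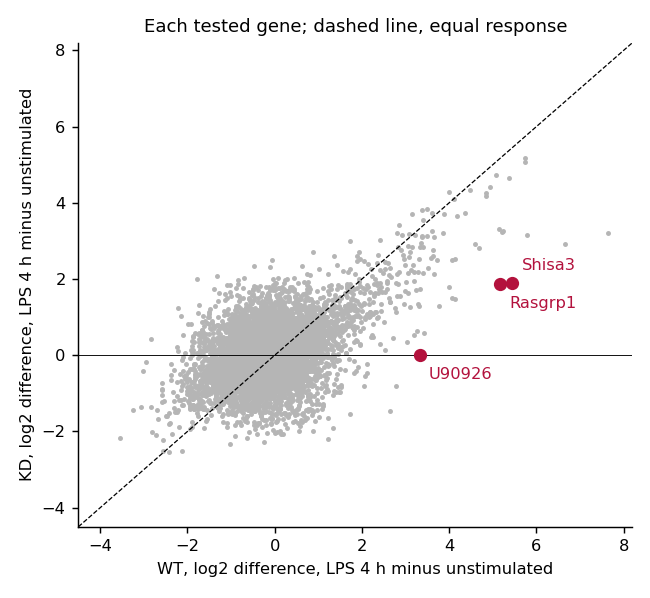
Log2 difference at 4 h from the unstimulated arrays in KD (vertical axis) against WT (horizontal axis) for 12914 genes, with the 3 genes named. All 3 lie below the diagonal of equal change, with KD minus WT between -3.55 and -3.31, and they were chosen for this.

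The genes most like each member were found by Pearson's r of log2 signals over the 12 arrays, as a description in which all points share arrays and strain and time differ together. For U90926 they were Zc3h15 (0.937), Jag1, a Notch ligand (0.924), Cul3, a ubiquitin ligase scaffold (0.897), Med10 (0.896) and Slc1a2 (0.893). For Shisa3 they were Dyrk2, a protein kinase (0.987), Akap13 (0.985), Atp2b1, a plasma membrane calcium pump (0.972), Ptch1, the Hedgehog receptor (0.971), and Fabp3 (0.971). The mean signal of Ptch1 was 316 in WT without LPS, 382 at 1 h and 1491 at 4 h, against 379, 294 and 548 in KD, so it too was high in WT at 4 h above all.

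For Rasgrp1 the closest were Usp12, a deubiquitinase (0.952), Bcor, a transcriptional corepressor (0.952), Map4k4, a kinase (0.945), Septin11 (0.944) and Pdzd8 (0.944). Shisa3 and Rasgrp1 had an r of 0.919 with each other (Spearman's rho 0.655), and Shisa3 ranked 39 of 12913 genes for Rasgrp1. U90926 had an r of 0.694 with Shisa3 (rho 0.249) and of 0.545 with Rasgrp1 (rho 0.0699). The members were chosen for their 4 h values. Shisa3 and Rasgrp1 were below the array median on every array without LPS or at 1 h. Nothing is therefore read from the likeness of the members to one another. With Spearman's rho in place of r, 0 of the 5 genes were shared for each member, so the names depend on the measure of likeness.

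Genes beside the members in the order of the GRCm38.p6 gene table were examined, up to 3 on each side with a tested probe set. Around U90926, the neighbours were Uso1, G3bp2 and Cdkl2 before it and Naaa, Sdad1 and Cxcl9 after it. Cxcl9, an interferon-induced chemokine, had mean signals of 17.2 without LPS and 79.6 at 4 h in WT and of 1.80 and 31.4 in KD. The rise at 4 h was called in WT (limma adjusted p = 0.0439) and in KD (0.0158). Without a trend in the variance prior neither was called (0.0849 and 0.0631). The strain difference in the 4 h response of Cxcl9 was 0.57 ± 0.92 (limma adjusted p = 0.842) and not called. The KD unstimulated mean was below the added 4.4, and no direction is read from it. Uso1, a vesicle tethering factor, changed by 0.15 ± 0.11 at 4 h in WT (adjusted p = 0.401). G3bp2 was called lower at 4 h in WT, at -0.35 ± 0.08 (adjusted p = 0.00601, and 0.0978 without the trend). In KD it was at -0.22 ± 0.08 (adjusted p = 0.118) and not called.

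Around Shisa3, the neighbours were C330024D21Rik, Bend4 and Slc30a9 before it and Atp8a1, Guf1 and Gnpda2 after it. Atp8a1, a phospholipid flippase, changed by -0.41 ± 0.18 at 4 h in WT (limma adjusted p = 0.132) beside the 5.45 of Shisa3. Around Rasgrp1 lay Fam98b, Spred1 and D330050G23Rik before it and Thbs1, Gpr176 and Eif2ak4 after it. Spred1, an inhibitor of Ras signalling and thus also a gene of the pathway of Rasgrp1, rose at 4 h in WT by 0.75 ± 0.08 (adjusted p = 1.57e-06), from a mean signal of 2221 to 3742. Gpr176, an orphan receptor, rose at 4 h in KD by 1.06 ± 0.16 (adjusted p = 0.000151) but was at -0.10 ± 0.16 in WT, a strain difference of 1.16 ± 0.23 (adjusted p = 0.00785). Its mean signal was 342 in WT without LPS, 168 at 1 h and 320.5 at 4 h, against 195, 149.8 and 409.8 in KD, so KD started lower. In WT it fell at 1 h by 1.01 on the log2 scale (adjusted p = 0.000494), a call kept in 12 of 12 fits with 1 array left out, and KD changed by -0.37 at 1 h (adjusted p = 0.236). Without a trend in the variance prior the strain difference at 4 h had an adjusted p of 0.116.

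The pathway of Rasgrp1 was examined through lists chosen with earlier results of these data known. Among the other exchange factors for Ras, 0 of the 5 tested of 8 listed genes rose and 1 fell in WT at 4 h, beside 6.95% and 10.2% of all probe sets (median -0.999, against -0.119 over all probe sets). In KD 0 rose and 1 fell, beside 5.3% and 4.7%. The gene that fell was Rasgrp3, a paralogue of Rasgrp1 with the same substrate class, at -1.95 ± 0.23 in WT (limma adjusted p = 4.43e-06) and -1.92 ± 0.23 in KD (adjusted p = 1.14e-05). Its mean signal went from 177 to 42.2 in WT and from 220.2 to 56.6 in KD, and the strain difference was 0.03 ± 0.33 (adjusted p = 0.983). Rasgrp4, a further paralogue, was at -1.63 ± 0.58 in WT (adjusted p = 0.0633) and 0.12 ± 0.58 in KD.

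Of 4 tested Ras proteins, 1 rose and 0 fell in each strain at 4 h, namely Rras2, by 0.93 ± 0.17 in WT (limma adjusted p = 0.000607) and 0.98 ± 0.17 in KD (adjusted p = 0.000686, and 0.0504 without the trend in the prior). Of 8 Ras GTPase-activating proteins, which switch Ras off, 1 rose and 2 fell in WT and 0 rose and 3 fell in KD. Of all probe sets, 6.95% rose and 10.2% fell in WT, and 5.3% and 4.7% in KD. The lists are small, and no change of a list as a whole is read from these counts. Rasa3 fell most in WT, at -1.82 ± 0.17 (adjusted p = 1.38e-07), with -0.84 ± 0.17 in KD (adjusted p = 0.00206). Of 6 Sprouty and Spred genes, which restrain the Ras and ERK pathway, 1 rose and 3 fell in WT and 2 rose and 2 fell in KD. Spry2 fell in WT from a mean signal of 1121 to 360.5 (-1.62 ± 0.12, adjusted p = 1.01e-08), and Spry3 was at -2.68 ± 0.44 (adjusted p = 0.000179) and Spred2 at -0.95 ± 0.15 (adjusted p = 0.000132). In KD Spry2 went from 1010 to 709, and the strain difference was 1.11 ± 0.17 (adjusted p = 0.00167, and 0.116 without the trend in the prior).

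**Figure D5:**
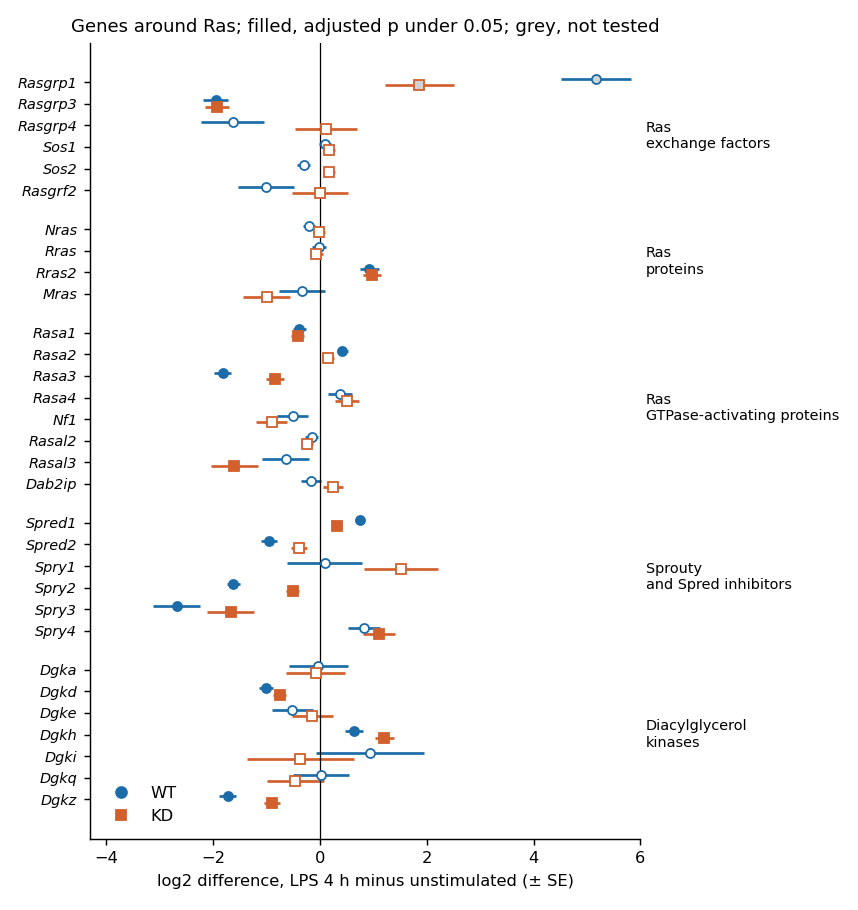
Log2 difference at 4 h from the unstimulated arrays in WT (circles) and KD (squares) for genes of 5 lists around Ras, with bars of 1 SE; filled points had a limma adjusted p under 0.05 and the grey points of Rasgrp1 were not tested. Rasgrp1 lies at 5.17 in WT, and Rasgrp3 at -1.95 in WT and -1.92 in KD.

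Diacylglycerol kinases, which remove the lipid that activates Rasgrp1, had 1 of 7 tested genes higher and 2 lower at 4 h in each strain. Beside this and the next counts stand 6.95% higher and 10.2% lower of all probe sets in WT, and 5.3% and 4.7% in KD. Dgkz fell in WT, at -1.72 ± 0.15 (limma adjusted p = 8.82e-08), with -0.89 ± 0.15 in KD (adjusted p = 0.000529). Dgkd was at -1.01 ± 0.12 in WT and -0.75 ± 0.12 in KD, and Dgkh rose in KD by 1.21 ± 0.17 (adjusted p = 8.86e-05). Phospholipase C enzymes, which make that lipid, had 0 of 9 higher in either strain, with 2 lower in WT and 1 in KD. Of 4 Raf, MEK and ERK kinases, 1 rose and 1 fell in WT and 0 of 4 were called in KD (0 of 4 at an unadjusted p under 0.05). The gene that fell in WT was Araf, a Raf kinase, at -0.91 ± 0.14 (adjusted p = 6.3e-05).

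In the strain difference of the 4 h response, these 7 lists had 5 calls among 43 tested genes other than Rasgrp1, with 4 higher in KD and 1 lower, beside 1.88% and 1.19% of all probe sets. They were Spry2, Rasa3, Dgkz and Araf, and Spred1 as the one lower, and none of these 5 kept its call without a trend in the variance prior. Stromal markers, given at the end, had 5 of 8 called higher in the same comparison.

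Around Shisa3, 0 of the 5 other tested Shisa genes of 11 listed were called at 4 h in WT (1 of 5 at an unadjusted p under 0.05) or in KD (0 of 5). Shisa5, the family member with the highest signal, was at 1589 without LPS and 1624 at 4 h in WT (0.03 ± 0.13, limma adjusted p = 0.919). Of 9 tested Frizzled receptors and co-receptors, through which Wnt ligands signal, 1 was higher and 2 lower in WT at 4 h and 0 were called in KD (1 of 9 at an unadjusted p under 0.05). The shares of all probe sets were 6.95% higher and 10.2% lower in WT, and 5.3% and 4.7% in KD. Fzd7 fell in WT from 510.6 to 253 at 1 h (-0.998 ± 0.16, adjusted p = 0.000452) and was at 240.2 at 4 h (-1.08 ± 0.16, adjusted p = 4.84e-05). Of 4 tested fibroblast growth factor receptors, 0 were called at 4 h in either strain by limma, and 0 had an unadjusted p under 0.05.

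At 1 h, KD against WT called 0 of the 5 other Ras exchange factors and 0 of the 5 other Shisa genes (0 and 1 at an unadjusted p under 0.05), beside 1.11% of all probe sets. Across all 10 pathway lists, 1 gene was called in that comparison.

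Markers of other cell types were read beside these results. Of 8 T and NK cell markers measured, 6 were below the median on all arrays, among them Cd3d, Cd3e and Cd3g, and their summed signal was 65.6 to 79.1 on the WT arrays at 4 h, where Rasgrp1 was highest, and 82.4 to 94.4 on the WT unstimulated arrays. Of 8 mast cell and basophil markers, 5 were below the median on all arrays, among them Cpa3, Ms4a2 and Fcer1a, with sums of 119.4 to 127.3 in WT at 4 h and 111.1 to 139.1 without LPS. On the KD arrays the T and NK sums were 119.8 and 126.7 without LPS and 89.6 and 102.2 at 4 h, and the mast cell and basophil sums were 97.2 and 113.6 without LPS and 153.9 and 171.3 at 4 h. The mast cell and basophil sums of the arrays at 1 h lay between 132 and 143.4 for WT and between 141.6 and 149.6 for KD. The T and NK sums were thus no higher at 4 h than without LPS in either strain. In KD the mast cell and basophil sums were above the unstimulated arrays at 1 h and highest at 4 h. In WT at 4 h they overlapped the unstimulated range. Most markers of both lists were below the array median, and the part of these cell types in the Rasgrp1 values was not tested. Of 5 B cell markers, 3 were below the median throughout, and the sums were 13.3 to 68 over all arrays.

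The sums of neutrophil and of stromal markers differed between the strains without LPS and at 1 h. Between KD and WT, U90926 differed by -1.93 ± 0.37 at 1 h, which was called, and by -0.76 ± 0.37 without LPS, which was not. The strain difference in its 1 h response was not called, so these values are not set against each other. The summed signal of 7 neutrophil markers was 804 to 977 on WT arrays and 1777 to 2466 on KD arrays, mostly from S100a8 (mean 842 in WT and 2139 in KD at 1 h), while Ngp, Mpo and S100a9 were below the median on all arrays. Of the 3 neutrophil markers tested, 1 was called higher in KD without LPS and 1 at 1 h, beside 5.25% and 1.11% of all probe sets called in either direction. Without LPS the 9 stromal markers summed to 3315 to 3429 on the WT arrays and 1512 to 1834 on the KD arrays. Of the 8 tested, 5 were called lower in KD, beside 5.25% of all probe sets called in either direction. At 1 h the sums were 3312 to 3393 and 2546 to 3177, and at 4 h 2438 to 2627 and 2640 to 2993, with Lum below the median throughout. At 1 h 1 of the 8 was called higher in KD and 3 lower, beside 1.11% of all probe sets called in either direction. In the strain difference of the 4 h response 5 of the 8 were called higher, beside 1.88% of all probe sets (median log2 difference 1.11, against 0.0687 over all probe sets). Of 9 macrophage markers, 3 were called higher in KD without LPS, beside the 5.25%. In the strain difference of the 4 h response 2 of the 9 were called lower, beside 1.19% of all probe sets. The part of these cell types in the strain differences of U90926, Shisa3, Rasgrp1 and the genes around them was not tested.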

How the data were processed

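RNA of mouse bone marrow macrophages was extracted with RNeasy kits and labelled by the NuGEN Ovation protocol, per the labels' protocols. The authors deposited linear signal intensities per probe set. The submitters' processing notes name MAS5, whose version is not given in the sources used here. Precision is limited by the number of arrays. Signals were used as deposited, and log2(value + 4.4) was taken, 4.4 being the 20th percentile of all values.

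Tests covered the 27931 of 45101 probe sets, for 12914 genes, whose signal exceeded the median of its array on 2 or more arrays. The 64 array controls were left out. The means of the 6 groups were estimated in limma 3.58.1 (R 4.3.3), with a variance prior that follows signal, and p-values were adjusted by Benjamini-Hochberg over all tested probe sets. The fit was tested on simulated data. Probe sets with several symbols (932) or none (9211) were not named. Of several tested probe sets of a gene, that with the highest mean stood for it. Named genes were the members, up to 4 called genes of each list with the largest change (or the one with the highest signal), the 5 most alike to each member and up to 3 neighbours on each side; only the more stable of these were described, and this selection was made after their values were seen. The members, lists and motifs were chosen with earlier results of these data known.

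Alternatives were quantile normalization, pseudocounts of 1 and 23.4, no filter, a filter at the 75th percentile, no trend in the prior, only the arrays compared, a replicate block, and each array left out. Same-numbered replicates did not deviate together (r of -0.07 to 0.04 over 15 pairs of groups), so the numbers were not taken to pair the samples.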

Additional observations from a re-analysis of the deposited data

Results flagged for a closer look

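Of the genes around Ras and beside the members, 6 had a strain difference in the 4 h response (KD minus WT, limma, all 12 arrays) with an adjusted p under 0.05. The log2 differences were 1.11 for Spry2 (adjusted p = 0.00167) and 1.16 for Gpr176 (adjusted p = 0.00785), both called in 12 of 12 fits with 1 array left out. Araf had 0.88 (adjusted p = 0.0162), a call lost in 3 of those fits, without WT unstimulated replicate 1 (0.77), WT 4 h replicate 1 (0.70) or KD 4 h replicate 1 (0.74). Rasa3 had 0.98 (adjusted p = 0.0277), Dgkz 0.83 (adjusted p = 0.0413) and Spred1 -0.44 (adjusted p = 0.0483), and their calls were lost in 7, 8 and 10 of the 12 fits. None of the 6 kept its call without a trend in the variance prior, where the adjusted p was 0.116 for Spry2 and Gpr176, 0.205 for Araf, 0.184 for Rasa3, 0.218 for Dgkz and 0.337 for Spred1. Quantile normalization also ended the calls of Rasa3 (adjusted p = 0.0552), Dgkz (0.0812) and Spred1 (0.0739), and the replicate block those of Dgkz (0.0514) and Spred1 (0.0649). Without the filter on low signals, and with only the arrays compared, Dgkz (0.0543 and 0.0607) and Spred1 (0.0992 and 0.0581) were not called either, nor was Spred1 with a pseudocount of 1 (0.0508). Over the fits with 1 array left out the values ranged from 0.88 to 1.07 for Rasa3, from 0.63 to 1.04 for Dgkz and from -0.49 to -0.38 for Spred1.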

How the results depend on the processing

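With 1 array left out, which leaves a group with 1 array that is assumed to vary like the others, the log2 differences ranged as follows, for U90926, Shisa3 and Rasgrp1 in that order. KD against WT at 1 h ranged from -2.12 to -1.73, -0.56 to 0.17 and -0.86 to 1.18. The WT 1 h change ranged from 0.96 to 1.90, -0.13 to 0.60 and -0.69 to 1.09. The KD 1 h change ranged from 0.06 to 0.46, -0.84 to -0.09 and -1.70 to 0.35. KD against WT without LPS ranged from -1.23 to -0.29, 0.13 to 0.88 and 0.64 to 1.42. The strain difference at 1 h ranged from -1.63 to -0.70, -1.07 to -0.32 and -1.90 to 0.15. The WT 4 h change ranged from 2.85 to 3.79, 5.23 to 5.67 and 4.87 to 5.47. The KD 4 h change ranged from -0.36 to 0.35, 1.31 to 2.48 and 1.36 to 2.36. KD against WT at 4 h ranged from -4.44 to -3.73, -3.63 to -2.46 and -2.77 to -1.78. The strain difference at 4 h ranged from -3.79 to -2.85, -4.14 to -2.97 and -3.80 to -2.81. WT from 1 h to 4 h ranged from 1.81 to 1.99, 4.85 to 5.58 and 4.08 to 5.86. KD from 1 h to 4 h ranged from -0.62 to 0.09, 1.78 to 2.95 and 1.51 to 3.56. The probe sets called numbered 125 to 429 (KD against WT at 1 h), 739 to 1932 (WT at 1 h), 818 to 1567 (KD at 1 h), 271 to 1523 (strains without LPS), 15 to 242 (strain difference at 1 h), 2899 to 5058 (WT at 4 h), 1576 to 2873 (KD at 4 h) and 269 to 923 (strain difference at 4 h). In these fits the sign of the uncalled 1 h differences of Rasgrp1 changed: the WT change was -0.69 without WT 1 h replicate 1, the KD change 0.35 and the strain difference 0.15 without KD 1 h replicate 2, and KD against WT -0.73 without WT 1 h replicate 2 and -0.86 without KD 1 h replicate 1. U90926 lost its call in WT at 1 h (1.43) without the filter (adjusted p = 0.0642) and without a trend (0.0939), and that between strains at 1 h (-1.93) without a trend (0.106), where the counts called were 17 in place of 309 (KD against WT at 1 h), 487 in place of 1709 (WT at 1 h), 506 in place of 1527 (KD at 1 h), 69 in place of 1465 (strains without LPS), 3150 in place of 4782 (WT at 4 h), 1326 in place of 2792 (KD at 4 h), 11 in place of 857 (strain difference at 4 h) and 0 in place of 91 (strain difference at 1 h by limma, with 2430 at an unadjusted p under 0.05). With only the arrays compared, 805 were called in KD at 1 h, 677 between strains without LPS and 39 in the strain difference at 1 h, and the last gave 142 after quantile normalization, 52 without a filter and 156 with the stricter one. The pseudocount moved values that rest on low signals: with 1, the WT 4 h change was 6.90 for Shisa3 and 5.83 for Rasgrp1, that from 1 h to 4 h 6.40 and 5.73 in WT and 3.51 and 3.18 in KD. With 23.4 these were 3.40 and 3.64, 3.34 and 3.52, and 0.99 and 1.44, the KD 4 h change of Shisa3 was 0.86, its strain difference -2.54, and U90926 had 2.72 in WT at 4 h, -3.16 between strains at 4 h and -2.71 as strain difference. Other probe sets went the other way: for Rasgrp1, 1450143_at gave 0.43 between strains at 4 h, -0.16 from 1 h to 4 h in WT and -0.018 in KD, 1421176_at -0.62 and -0.76, and 1431749_a_at -0.31 in WT at 4 h and -0.62 from 1 h, and for Shisa3 1438884_at -0.12 from 1 h to 4 h in KD. The causes of these changes were not tested. The replicate numbers showed no pairing, and with the replicate number as a block U90926 had an adjusted p of 0.0127 between strains at 1 h and 0.0253 in WT at 1 h, no call of a member changed, while Dgkz and Spred1 lost that of their strain difference at 4 h (0.0514 and 0.0649), and the counts called were 283, 1631, 1462, 1362 and 119 in the 1 h and unstimulated comparisons and 4649, 2665 and 767 at 4 h.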
